A study of Homo sapiens with 12 samples.

Results

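The USP genes encode ubiquitin-specific proteases, the largest family of human deubiquitinases, and are taken here as every row of the deposited table whose current symbol is USP followed by a digit, on an autosome or the X chromosome. There were 47 such genes among 14029 tested. The annotation holds 78 protein-coding genes with symbols of that form, and the other 31, which are USP26, USP29, USP43, USP44, USP51 and the USP17L copies, are not analysed here. USP6NL matched the symbol but encodes a GTPase-activating protein for RAB proteins, not a protease, so 46 of the 47 belong to the family. The cells were ES-2, an established line from a human ovarian cancer. One arm carried a control vector, named PLKO in the labels and given the genotype WT, and the other carried a short hairpin RNA against the tyrosine kinase SRMS, given the genotype SRMS knockdown. Both arms compared here received 15 µM cisplatin, a platinum drug that crosslinks DNA, for 8 hours, with 3 libraries each. The 6 samples of the series that received PBS are not analysed here, so no response to cisplatin itself was measured. How many hairpins or clones were used is not given in the sources used here.

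Deubiquitinases remove ubiquitin, a small protein tag, from other proteins or take chains of it apart. In the response to DNA damage, ubiquitin on PCNA, FANCD2 and histone H2A marks damaged sites, and ubiquitin on checkpoint proteins and on the ligase MDM2 sets how long they last, so several USP enzymes act at crosslinks and stalled forks. USP1 with its partner WDR48 clears FANCD2 and PCNA, USP7 acts on MDM2, USP28 binds 53BP1, USP37 acts on replication fork proteins, and USP45 acts on the nuclease subunit ERCC1. Others serve the proteasome, endosomes, mitochondria or the interferon response.

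The libraries held 28009232 to 56855428 reads over the listed genes, recovered from values that are reads scaled by an effective library size as for CPM (called signal below). The labels do not state that the 3 replicates of an arm came from separate cultures, and the p-values therefore reflect only the spread between these libraries, which may be technical. Replicate 1 stood apart from replicates 2 and 3 in both arms, with a mean chi-square per gene of 9.90 and 10.8 with the vector and 15.0 and 13.0 with the hairpin label, against 2.04 and 1.91 between replicates 2 and 3. The transcript of SRMS itself did not fall under the hairpin label. SRMS signal was 0.0669, 0.306 and 0.819 with the vector and 0.328, 1.07 and 0.863 with the hairpin label, from 2 to 47 reads a library (log2 fold change 0.52, limma adjusted p = 0.168), so directions below follow the labels. Of the epithelial markers listed, KRT8, KRT18 and KRT7 were in the table, with a summed signal of 1637 to 1696 against 1619 to 1690, while EPCAM, CDH1 and KRT19 are not analysed here. Within that sum KRT7 fell (log2 fold change -0.36, limma adjusted p = 0.000126) and KRT8 (0.18, limma adjusted p = 0.00173) and KRT18 (0.21, limma adjusted p = 0.000162) rose. Of the Müllerian and ovarian carcinoma markers, 2 of 4 were in the table. PAX8 was near 0 (mean 0.136 and 0.241, not called), and WT1 fell from 2.84 ± 0.331 to 1.42 ± 0.0700 (log2 fold change -0.80, limma adjusted p = 0.000175). The mesenchymal markers VIM, FN1 and CDH2 summed to 5822 to 6360 against 7010 to 7772, where VIM (0.29 on the log2 scale) and FN1 (0.27) rose and CDH2 (-0.17) fell. The fibroblast markers (4 of 6 in the table), almost all of it COL1A1, summed to 1246 to 1251 against 822 to 828, while COL1A2 had means of 0.147 and 0.0671. The endothelial markers (3 of 4) summed to 14.8 to 16.8 against 5.88 to 8.36, nearly all CDH5, with PECAM1 at means of 0.211 and 0.393. The leukocyte markers (2 of 4) summed to 48.2 to 51.3 against 57.0 to 61.7, nearly all CD68. The part of these shifts in the results below was not tested, and in bulk RNA fewer cells of a type and less RNA per cell cannot be told apart.

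Most USP transcripts were lower in the libraries labelled SRMS shRNA. Called at a limma p of 0.05, adjusted by Benjamini-Hochberg over the full 14029 genes, 34 of the 47 fell and 4 rose. The background was 30.2% of all genes lower and 26.6% higher, or 56.8% in either direction. The median log2 fold change of the 47 was -0.33, and that of all genes was 0.00. The falls were moderate: 16 members were called with a log2 fold change of -0.5 or lower, a mark that 10.0% of all genes passed, and 0 members rose by 0.5, which 7.05% of all genes did. All 3 libraries of one arm lay beyond all 3 of the other in 33 members that were lower and 5 that were higher, against 32.9% and 29.7% of all genes. Without USP6NL the counts were 33 lower and 4 higher of 46, and with replicate 1 of both arms left out they were 33 lower and 4 higher of 47. With the libraries aligned on their median log2 value, which moves the median of all genes to 0.16, 23 USP genes were lower and 8 higher, with a median of -0.17 and a background of 17.9% lower and 44.6% higher.

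**Figure D1:**
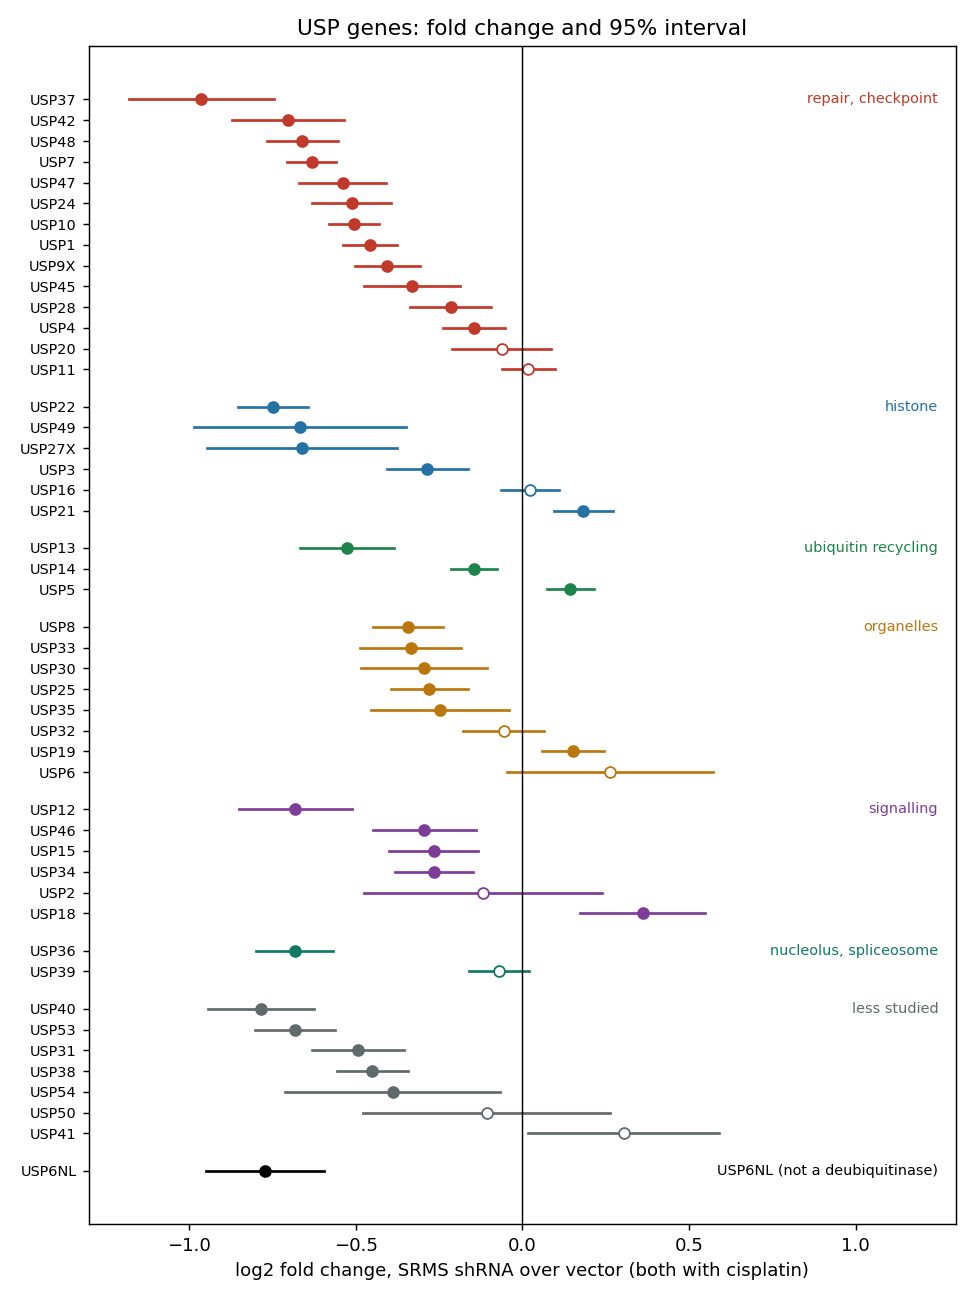
Log2 fold change of the 47 USP genes (SRMS shRNA label over vector, horizontal axis) with 95% intervals, grouped by role. Filled points passed an adjusted p of 0.05 in limma and open points did not. Filled points on the left number 34 and those on the right 4.

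Transcript length moved with the fold change across the whole table and the USP genes are long. Their transcripts had a median length of 4595 bases, against 3055 for all genes, taking 1 annotated transcript per gene. All genes were put into 5 bins of nearly equal size by length. In the bin of the longest transcripts (5353 bases or more) 54.4% of genes were lower, and of the 18 USP genes there 17 were lower and 0 higher. In the next bin (3661 to 5352 bases) 42.2% of all genes and 13 of 17 USP genes were lower. In the middle bin 30.0% of all genes and 3 of 6 USP genes were lower. In the bin below it 17.6% of all genes and 1 of 4 USP genes were lower, and in the shortest bin 6.76% of all genes and 0 of 2 USP genes. The median log2 fold change of the USP genes in the longest bin was -0.47, beside -0.23 for all genes in it, and in the next bin -0.30 beside -0.12. Across the 47 genes, which share the same 6 libraries, Pearson's r between log2 length and log2 fold change was -0.42, and it was -0.43 across all genes with a transcript.

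**Figure D2:**
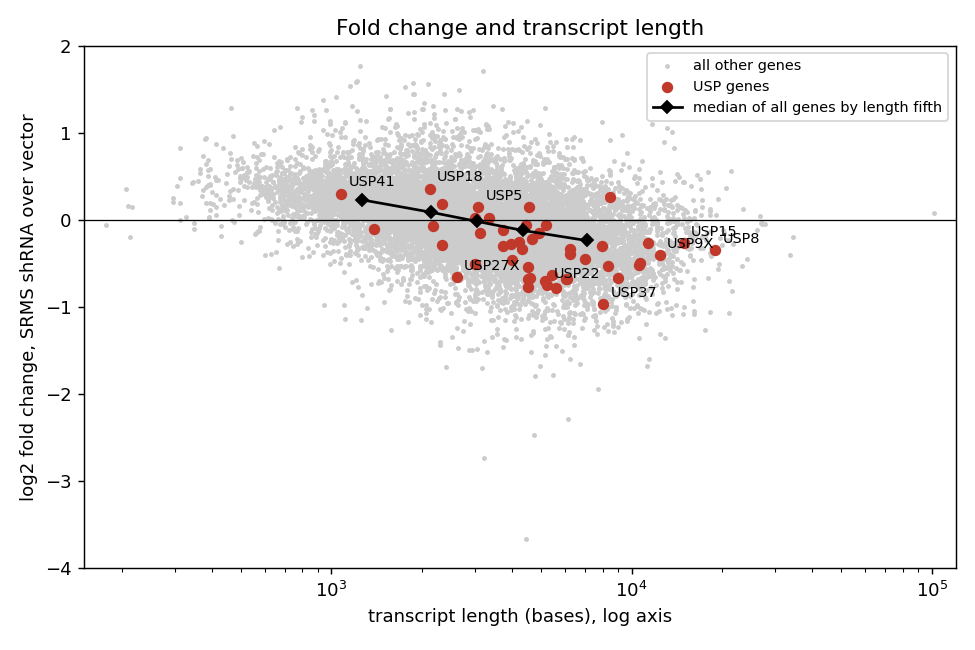
Log2 fold change (vertical axis) against transcript length in bases (log axis) for the USP genes in red and all genes in grey, with the median of all genes in each of 5 length bins as black diamonds. The diamonds run from 0.23 in the shortest bin to -0.23 in the longest, where the median of the USP genes is -0.47.

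A further fit, called the corrected fit here, made 2 changes at once: the smooth trend on transcript length and GC content was removed in each library, and the replicate number was a block. With the block alone 35 USP genes were lower and 4 higher, against 34.3% and 31.0% of all genes. In the corrected fit 28 USP genes were lower and 8 higher, against 32.7% and 28.7% of all genes, with a median of -0.19. Of the 34 lower genes, 27 were lower in that fit too. USP15, USP28, USP30, USP34, USP45 and USP46 were not called there, with log2 fold changes from -0.21 to 0.026. USP14 turned to 0.065 (limma adjusted p = 0.00471). USP27X, with a short transcript of 2618 bases, had -0.67 in that fit beside -0.66 without the correction, and USP10 had -0.49 beside -0.51. USP9X, whose transcript has 12401 bases, had -0.12 beside -0.41.

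**Figure D3:**
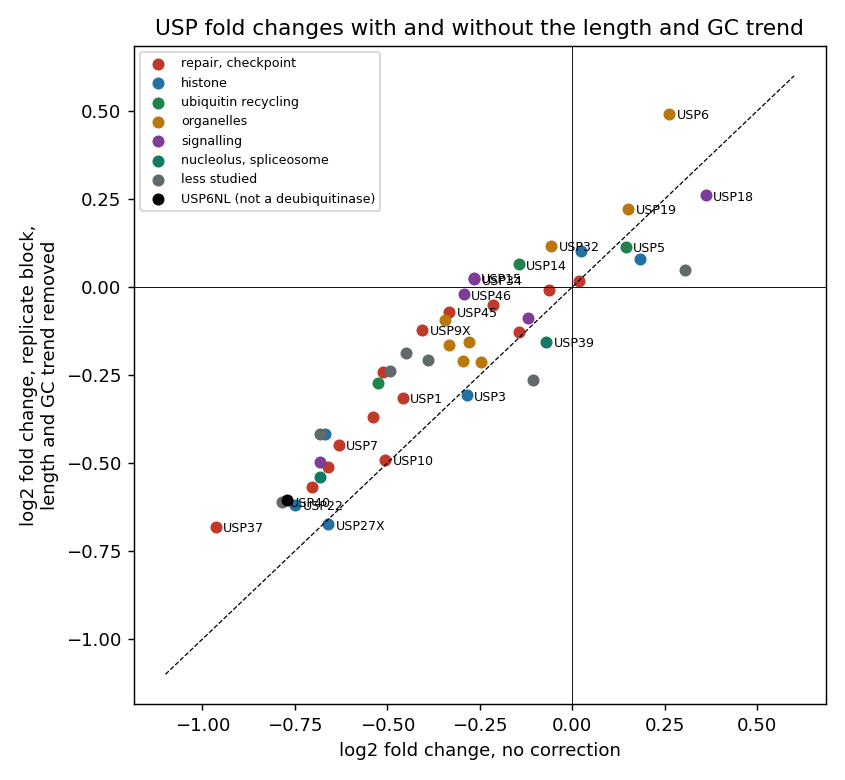
Log2 fold change of each USP gene without correction (horizontal axis) and with the replicate block and the length and GC trend removed (vertical axis), coloured by role. The dashed line marks equal values. Most points on the left lie above it, so their falls were smaller after the correction, and USP37, USP27X, USP22, USP40 and USP6NL stayed below -0.60.

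The promoters of the members were also examined, and 3 GC-rich ones are printed. Whether promoter letters relate to the fold changes was not tested. The printed windows of USP1, USP22 and USP5 had 64.3%, 75.7% and 65.7% GC. Not all USP windows were GC-rich, and that of USP50 had 37.7%. RefSeq promoter windows on GRCh38.p14, from 250 bases before to 50 bases after a start, were found for 39 of the 47 genes, with 52 windows in all. None was found for USP9X, USP18, USP24, USP31, USP37, USP41, USP42 and USP48. The windows printed are of USP1 (chr1:62436145-62436444, plus strand), USP22 (chr17:21042962-21043261, minus strand) and USP5 (chr12:6851900-6852199, plus strand). Another USP1 window (chr1:62436799-62437098, plus strand) is not printed, and it holds 1 GC box but no ETS core or CCAAT box. USP1 and USP22 fell and USP5 rose. Capitals mark the ETS core CCGGAAG, the CCAAT box CCAAT and the GC box GGGCGG on either strand, and a base may count for more than 1 of them.
USP1: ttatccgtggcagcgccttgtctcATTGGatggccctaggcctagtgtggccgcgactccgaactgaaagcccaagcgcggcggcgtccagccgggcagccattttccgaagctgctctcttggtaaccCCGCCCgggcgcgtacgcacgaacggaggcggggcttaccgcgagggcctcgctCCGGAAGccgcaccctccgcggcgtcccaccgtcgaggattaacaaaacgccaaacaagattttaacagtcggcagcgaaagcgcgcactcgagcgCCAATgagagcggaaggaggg
USP22: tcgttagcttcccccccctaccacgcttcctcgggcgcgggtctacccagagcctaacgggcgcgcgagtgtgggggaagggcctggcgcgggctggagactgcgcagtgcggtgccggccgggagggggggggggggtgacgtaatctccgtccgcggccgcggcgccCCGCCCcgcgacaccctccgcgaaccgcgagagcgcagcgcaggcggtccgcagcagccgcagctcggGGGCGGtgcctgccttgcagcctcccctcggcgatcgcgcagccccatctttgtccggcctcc
USP5: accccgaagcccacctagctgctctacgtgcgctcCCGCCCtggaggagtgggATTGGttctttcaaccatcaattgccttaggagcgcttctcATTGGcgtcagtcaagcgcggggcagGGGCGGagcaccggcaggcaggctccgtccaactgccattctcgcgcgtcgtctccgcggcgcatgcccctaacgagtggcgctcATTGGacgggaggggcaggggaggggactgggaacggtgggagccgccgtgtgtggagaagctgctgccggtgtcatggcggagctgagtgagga
The GC box was in 38 of the 52 USP windows (73.1%) and in 44.95% of all 35116 windows. The ETS core was in 12 (23.1%), against 10.3% of all, the CCAAT box in 14 (26.9%), against 34.6%, and the TATA box TATAAA in 3 (5.77%), against 11.5%. The letters TGACGTCA, TTTGGCGC and TTTCCCGC were in 0 USP windows, and in 1.85%, 0.652% and 1.63% of all. Every motif was searched on both strands. The median number of CG pairs was 30.5 in the USP windows and 14.0 in all windows, which include those of non-coding genes.

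USP genes that act in DNA repair, checkpoints and damage signalling were lower in 12 of 14 cases, and 0 rose. Of all genes 30.2% were lower and 26.6% higher. Their median log2 fold change was -0.48, beside -0.33 for all 47 USP genes, of which 34 were lower. With the libraries aligned on their median 10 were lower and 1 higher (median -0.32), beside 17.9% and 44.6% of all genes. The corrected fit left 10 lower and 0 higher (median -0.28), beside 32.7% and 28.7% of all genes. The block alone gave 12 and 0, beside 34.3% and 31.0%. A median near -0.48 was not particular to the repair genes. It was -0.47 for the USP genes of histones and -0.45 for the less studied ones, and -0.36 and -0.24 in the corrected fit. USP37 (ENSG00000135913, GRCh38 chromosome 2, 218450251 to 218568361, minus strand) fell furthest of all 47. Its signal was 9.33, 8.23 and 8.02 with the vector and 4.56, 3.96 and 3.87 in the libraries labelled SRMS shRNA. The groups did not overlap, and the mean went from 8.53 ± 0.707 to 4.13 ± 0.376 (SD, n = 3 each), a log2 fold change of -0.96 (SE 0.0979, limma adjusted p = 2.13e-05). Only 1.56% of all genes had a lower fold change.

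USP1 (ENSG00000162607, chromosome 1, 62436297 to 62451804, plus strand), the enzyme that clears FANCD2 and PCNA, had 209, 202 and 203 with the vector and 155, 146 and 145 with the hairpin label. Every vector library lay above every library labelled SRMS shRNA, and the mean fell by 27.2% (log2 fold change -0.46, SE 0.0369, limma adjusted p = 4.69e-06). USP7 (ENSG00000187555, chromosome 16, 8892094 to 8964514, minus strand), which acts on MDM2, had 193, 192 and 189 against 126, 123 and 121. Its mean fell by 35.5%, with SDs of 2.37 and 2.48 (log2 fold change -0.63, limma adjusted p = 4.25e-07). USP10, a mainly cytoplasmic deubiquitinase, had 148, 151 and 153 against 105, 107 and 106, or -0.51 on the log2 scale (limma adjusted p = 1.59e-06).

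USP42, a nuclear deubiquitinase, fell from 19.3 ± 0.567 to 11.7 ± 1.09, and USP48, another nuclear one, from 70.4 ± 1.68 to 44.4 ± 2.42. USP47, which acts in base excision repair, fell from 81.6 ± 3.14 to 56.1 ± 4.63, and USP24, a deubiquitinase of the damage sensor DDB2, from 87.5 ± 4.51 to 61.3 ± 3.56. USP9X, which acts on MCL1 and on fork proteins, fell from 109.7 ± 1.79 to 82.7 ± 4.34. All 5 had no overlap between the groups and limma adjusted p from 2.58e-06 to 3.32e-05. USP45, the ERCC1 deubiquitinase, had 19.1, 21.3 and 20.8 against 16.5, 15.3 and 16.4. Its log2 fold change of -0.33 (limma adjusted p = 0.00148) was -0.071 in the corrected fit (limma adjusted p = 0.307).

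The smallest changes of this list were in USP28, USP4, USP20 and USP11. USP28, the partner of 53BP1, fell from 29.2 ± 1.44 to 25.1 ± 0.548, and was -0.055 on the log2 scale with median alignment (limma adjusted p = 0.382). USP4 fell from 62.2 ± 0.593 to 56.2 ± 1.97, and it was 0.015 with median alignment (limma adjusted p = 0.758) and not called without SRMS shRNA replicate 3 (limma adjusted p = 0.0582). USP11, which acts on BRCA2 and PALB2, had 98.1, 97.1 and 94.5 against 95.9, 99.7 and 97.7. These values overlap, and the log2 fold change of 0.018 had a 95% interval of -0.062 to 0.098. With median alignment it was 0.18 (limma adjusted p = 0.00198). USP20, an enzyme of the checkpoint protein claspin, had -0.061 with an interval of -0.21 to 0.087.

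**Figure D4:**
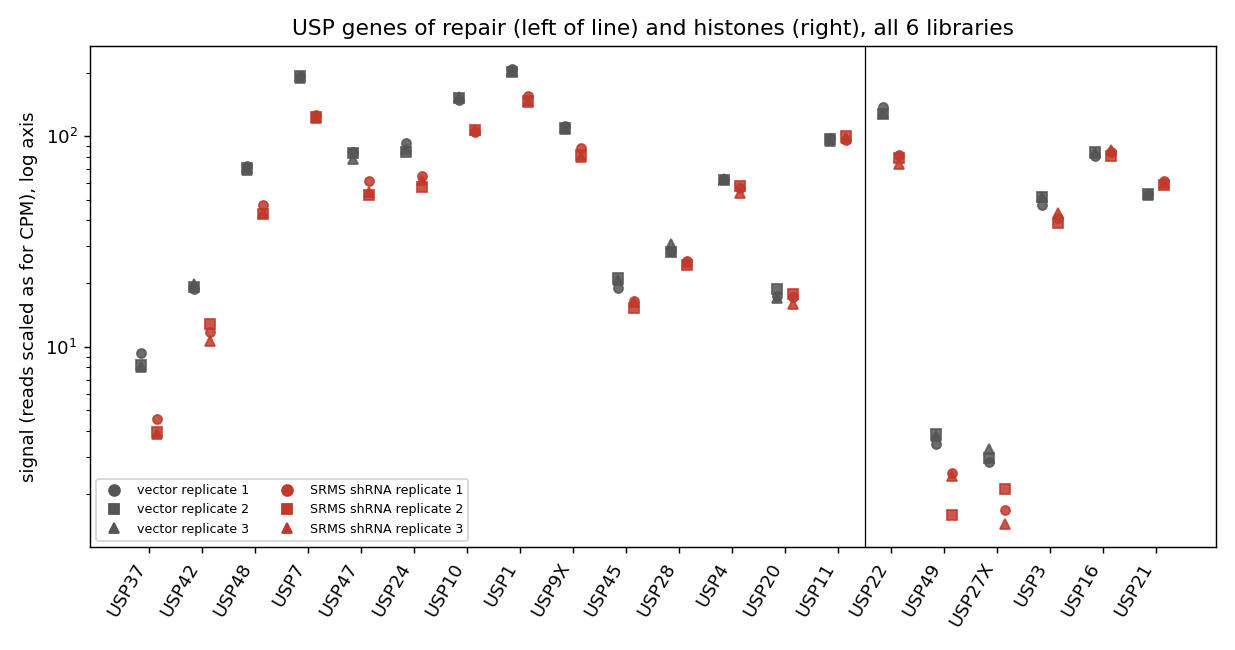
Signal (log axis) of each of the 6 libraries for the USP genes of repair (14, left of the line) and of histones (6, right), with the vector in grey and the SRMS shRNA label in red, and a marker shape per replicate. The red points lie below the grey ones for all genes except USP20, USP11, USP16 and USP21.

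Of the 6 USP genes that act on ubiquitinated histones, 4 fell and 1 rose, beside 30.2% and 26.6% of all genes. USP22 (ENSG00000124422, chromosome 17, 20999593 to 21043760, minus strand), the deubiquitinase of the SAGA coactivator complex, had 138, 128 and 129 with the vector and 81.7, 78.4 and 74.1 with the hairpin label. The groups were far apart for their spread, with a log2 fold change of -0.75 (SE 0.0471, limma adjusted p = 1.16e-06). USP27X, a close copy of USP22 that shares its SAGA partners, had 2.84, 2.97 and 3.26 against 1.68, 2.12 and 1.44, from 45 to 187 reads a library. Its log2 fold change was -0.66 (SE 0.128, limma adjusted p = 0.00141). USP49, a deubiquitinase of histone H2B, fell from 3.71 ± 0.203 to 2.18 ± 0.509, and USP3, which acts on H2A, from 49.9 ± 2.3 to 40.9 ± 2.25. USP3 was -0.12 with median alignment (limma adjusted p = 0.0686) and -0.31 in the corrected fit.

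USP16, an H2A deubiquitinase of mitosis, did not change beyond its spread, with 80.6, 83.9 and 82.8 against 84.3, 80.8 and 86.3. Its 95% interval was -0.065 to 0.11 on the log2 scale. It was called higher with median alignment (0.18, limma adjusted p = 0.00248) and in the corrected fit (0.10, limma adjusted p = 0.00271), but not with the block alone (limma adjusted p = 0.541). USP21, another H2A enzyme, rose from 52.9 ± 0.29 to 60.1 ± 1.51 (log2 fold change 0.18, limma adjusted p = 0.00275).

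The 3 genes for recycling ubiquitin split. USP5 (ENSG00000111667, chromosome 12, 6852128 to 6866632, plus strand), which takes free ubiquitin chains apart, had 336, 327 and 323 with the vector and 368, 366 and 356 with the hairpin label. The groups did not overlap, and the mean went from 329 ± 6.48 to 363 ± 6.24 (log2 fold change 0.14, SE 0.0321, limma adjusted p = 0.00315). USP13, its close relative, had 23.6, 23.6 and 22.9 against 15.9, 17.3 and 15.1, or -0.52 on the log2 scale (limma adjusted p = 6.58e-05). USP14, the deubiquitinase bound to the proteasome, went from 307 ± 5.41 to 278 ± 1.18, or -0.14 on the log2 scale (limma adjusted p = 0.00243). It turned to 0.015 with median alignment (limma adjusted p = 0.683) and to 0.065 in the corrected fit.

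Among 8 USP genes of endosomes, the endoplasmic reticulum, mitochondria and vesicle transport, 5 fell and 1 rose, beside 30.2% and 26.6% of all genes. USP8, which acts on receptors at endosomes, fell from 78.4 ± 2.45 to 61.7 ± 3.19, and USP33 from 53.9 ± 3.7 to 42.7 ± 3.72. USP30, which sits on the mitochondrial outer membrane and opposes mitophagy, fell from 6.73 ± 0.362 to 5.39 ± 0.215, USP25 from 31.0 ± 0.306 to 25.5 ± 1.18, and USP35 from 7.42 ± 0.479 to 6.18 ± 0.568. USP35 was not called without vector replicate 2 or 3, or SRMS shRNA replicate 2 or 3 (limma adjusted p = 0.149, 0.107, 0.0985 and 0.145). USP19, anchored in the endoplasmic reticulum, rose from 129 ± 5.02 to 144 ± 5.6 (log2 fold change 0.15, limma adjusted p = 0.0108), and without vector replicate 3 the limma adjusted p was 0.0542. USP32 had 31.1, 31.6 and 31.8 against 32.4, 28.8 and 29.7, which overlap. USP6 was counted in only 2, 7 and 14 reads against 8, 12 and 7. With median alignment this list had 2 higher and 2 lower, beside 44.6% and 17.9% of all genes.

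Of 6 USP genes in signalling and interferon control, 4 fell and 1 rose, beside 30.2% and 26.6% of all genes. USP12, which works with WDR48 and WDR20, had 13.3, 13.8 and 14.6 against 9.01, 7.95 and 8.54. It had the largest fall of the list, -0.68 on the log2 scale (SE 0.0761, limma adjusted p = 3.94e-05). USP46, its close copy with the same partners, fell from 14.5 ± 0.415 to 11.8 ± 0.684, USP15 from 59.9 ± 5.12 to 49.6 ± 1.32, and USP34, which acts on axin in Wnt signalling, from 84.9 ± 1.72 to 70.7 ± 5.39. In the corrected fit these 3 had log2 fold changes of -0.020, 0.026 and 0.023. USP18, the protease that removes the interferon-induced tag ISG15, had 8.46, 7.84 and 8.54 against 11.6, 11.0 and 9.78. It had the highest limma fold change of the 47 (log2 0.36, SE 0.0846, limma adjusted p = 0.00427). In edgeR, USP6 (0.73) and USP41 (0.45), which were not called there, lay above USP18 (0.39). USP2, with 6 to 24 reads a library, had -0.12 with an interval of -0.48 to 0.24.

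USP36, a nucleolar deubiquitinase, fell from 67.3 ± 2.93 to 41.7 ± 2.28 (log2 fold change -0.68, limma adjusted p = 3.49e-06). USP39, a spliceosome protein that lacks protease activity, had 104, 107 and 108 against 96.5, 104 and 103. These overlap (log2 fold change -0.070, limma adjusted p = 0.161), and with the replicate block the limma adjusted p was 0.0321. Among 7 less studied members 5 fell and 0 rose, beside 30.2% and 26.6% of all genes. USP40 had 41.3, 37.4 and 37.7 against 24.8, 20.9 and 21.4, the second largest limma fall of the 47 (log2 fold change -0.78, limma adjusted p = 1.09e-05). In edgeR, USP6NL (-0.82) fell further than USP40 (-0.79). USP53 fell from 33.0 ± 0.295 to 20.4 ± 1.01. USP54 had 14.4, 12.9 and 11.9 against 13.0, 8.3 and 8.73, where the groups overlap, with a limma adjusted p of 0.0417. Without vector replicate 1 or 2, or SRMS shRNA replicate 2 or 3, USP54 was not called (limma adjusted p = 0.129, 0.0844, 0.162 and 0.143). USP50 had -0.11 with an interval of -0.48 to 0.26, and USP41 had 0.30 (limma adjusted p = 0.0665). USP6NL fell from 11.8 ± 0.609 to 6.69 ± 0.391, a log2 fold change of -0.77.

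Levels of different genes are compared as signal per kilobase of transcript. With the vector, USP5 stood highest at 106.6 ± 2.1, followed by USP14 at 62.4 ± 1.1, USP1 at 51.2 ± 0.922, USP10 at 50.1 ± 0.907 and USP39 at 48.8 ± 0.996. USP1 and USP10, and USP10 and USP39, lay closer together than the sum of their SDs. In the libraries labelled SRMS shRNA, USP5 stood at 117.9 ± 2.02 and USP39 at 46.5 ± 1.85, while USP1 stood at 37.3 ± 1.35 and USP10 at 35.2 ± 0.385. USP39 thus lay above USP1 and USP10 in the second group. In the first it lay below USP1, and its order with USP10 was within their spread. USP37, the gene with the furthest fall, was among the lowest in level, at 1.06 ± 0.088 and 0.514 ± 0.0468.

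**Figure D5:**
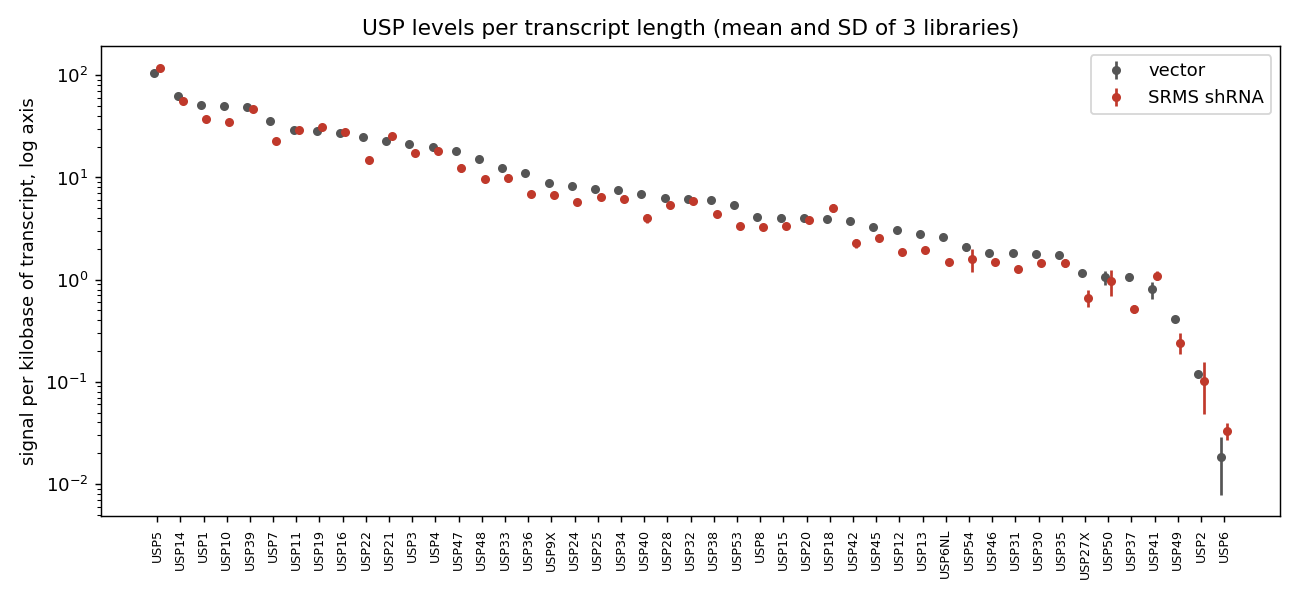
Signal per kilobase of transcript (log axis) of the 47 USP genes in order of their vector level, as mean and SD of 3 libraries, vector in grey and SRMS shRNA label in red. Levels run from 106.6 for USP5 to 0.0183 for USP6 with the vector.

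Close relatives within the family did not always share a fold change. Of 13 pairs of measured relatives, USP5 and USP13 were called in opposite directions. The ratio of USP5 to USP13 per kilobase was 38.0 ± 0.511 with the vector and 61.1 ± 3.4 with the hairpin label (SD, n = 3 each; two-sided exact permutation p = 0.1, the smallest that 3 against 3 allows). In 5 of the 13 pairs the ratio did not overlap between the groups. The share among other gene pairs was not computed. Of single genes, 32.9% were lower and 29.7% higher without overlap. For USP12 over USP46 it was 1.69 ± 0.13 against 1.27 ± 0.0482, and for USP16 over USP45 it was 8.44 ± 0.313 against 10.9 ± 0.207. USP36 and USP42 moved alike, with a ratio of 2.96 ± 0.208 against 3.06 ± 0.452. USP22 over USP27X was 21.9 ± 2.27 against 22.9 ± 3.84, which overlap. These ratios were not corrected for the trend on length and GC content. For the 5 pairs without overlap, the log2 fold changes in the corrected fit were as follows. USP5 had 0.11 and USP13 -0.27, USP12 -0.50 and USP46 -0.020, and USP16 0.10 and USP45 -0.071. USP11 had 0.016, beside its relatives USP4 (-0.13) and USP15 (0.026).

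Other genes of the pathway were read from lists. A list of 41 genes outside the USP-numbered ones held deubiquitinases and related proteins, not all of them deubiquitinases. For short, it is called the other deubiquitinases below. Of these 41 genes, 14 fell and 8 rose, beside the same background of 30.2% and 26.6%. Their median was -0.051 on the log2 scale, with a median transcript of 3814 bases. With median alignment 9 were lower and 18 higher, beside 17.9% and 44.6% of all genes. The largest changes were in the OTU family. OTUD7B, which cuts K11-linked chains, fell from 25.4 ± 1.47 to 12.3 ± 2.22, ZRANB1 from 32.5 ± 0.982 to 19.4 ± 2.73, and OTULIN, which cuts linear chains, from 20.3 ± 0.708 to 12.5 ± 1.05. The difference between this list and the USP genes was not tested.

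Of 11 proteins that USP enzymes bind or need, 6 fell and 2 rose, beside 30.2% and 26.6% of all genes. G3BP1, the partner of USP10, fell from 244 ± 1.92 to 164 ± 8.28, ATXN7L3B, which relates to the SAGA module of USP22, from 14.8 ± 0.444 to 10.6 ± 0.664, and WDR20, the partner of USP12 and USP46, from 21.7 ± 1.51 to 16.4 ± 0.578. WDR48, the partner of USP1, chosen here after its values were seen, went from 32.9 ± 1.29 to 30.1 ± 1.73 (log2 fold change -0.13, limma adjusted p = 0.0771). With median alignment 3 of the 11 were higher and 3 lower, beside 44.6% and 17.9% of all genes.

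Of 26 DNA damage proteins and ligases that are known or proposed USP targets, 16 fell and 3 rose, beside 30.2% and 26.6% of all genes, and their median log2 fold change was -0.35. CDC25A, a phosphatase of the cell cycle, fell from 80.7 ± 2.37 to 36.2 ± 1.01, BLM, the helicase on which USP37 acts, from 25.5 ± 1.12 to 14.8 ± 0.584, and MDM2, a ubiquitin ligase and USP7 target, from 21.0 ± 0.965 to 13.0 ± 1.38. Others were chosen after their values were seen. FANCI, a USP1 target, fell from 116.5 ± 6.86 to 95.5 ± 7.03. On the log2 scale FANCD2 had -0.11 (limma adjusted p = 0.0864) and PCNA 0.076 (limma adjusted p = 0.139). ERCC1, the USP45 target, went from 79.7 ± 5.88 to 94.6 ± 9.12 with overlapping groups (limma adjusted p = 0.0154). Median alignment gave 8 higher and 14 lower of the 26, beside 44.6% and 17.9% of all genes. The replicate block alone gave 5 higher and 19 lower, beside 31.0% and 34.3%, and the corrected fit 5 higher and 16 lower, beside 28.7% and 32.7%.

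The hexamer CGTGTC is shown because an earlier scan of these same fold changes picked it out, so its counts are no independent support. It was in the 3′ UTR of 8 USP genes, and 9.55% of all genes with a transcript hold it there. The sites are printed below as 30 bases of the annotated transcript with the hexamer in capitals, from the lowest fold change to the highest.
USP37: ttaattcttttaCGTGTCtttgcatttgag
USP40: cgcttctgcacaCGTGTCtgagagcgtctg
USP22: cgcgttttcaagCGTGTCtgttctgcaggt
USP49: tgccaggtgattCGTGTCctgtcgtaaatt
USP7: taatgccagctgCGTGTCtagttttgagtg
USP31: gttccatctggcCGTGTCagtgcaaattgc
USP20: ctgctgagtgccCGTGTCcccacagcccca
USP11, first site: aatctcgcttctCGTGTCcgccccgcttct
USP11, second site: gaaagaacaggtCGTGTCtcctcctagcag
Of these 8 genes 6 fell and USP20 and USP11 were not called, with a median log2 fold change of -0.65. Of the 39 USP genes without it in the 3′ UTR, 28 fell and 4 rose, with a median of -0.29. Among all genes the medians were -0.16 with the hexamer there (46.3% lower) and 0.016 without (28.5% lower), and the genes with it had longer 3′ UTRs, with a median of 2539.5 bases against 869.

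Some members share sequence or overlap other genes, which makes their counts less certain. Of the 50-base stretches of the USP41 transcript 46.5% also lie in USP18, and 23.0% of those of USP18 lie in USP41, so reads of these relatives could be split either way. USP32 shares 28.2% of its stretches with other genes, mostly its pseudogene USP32P4, USP6 shares 17.3%, and USP10 16.45%, mostly with a processed pseudogene. USP31 shares 25.5% with a non-coding RNA, which overlaps 23.0% of the USP31 exon bases on the same strand. In USP37, 32.8% of exon bases overlap VIL1 on the opposite strand, and in USP50 28.6% overlap USP8. The libraries mark strand, but the counting setting is not given in the sources used here.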

How the data were processed

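Poly(A) RNA was sequenced as stranded paired-end libraries on a NovaSeq instrument, per the labels' protocols. The submitters' processing notes name HISAT2, StringTie, edgeR, cutadapt and FastQC, and build GRCh38. Versions, and how low genes were filtered, were not given in the sources used here. In the table, the authors' deposited values, named log CPM, are a linear signal: each gene's reads over an effective library size, on the CPM scale. At least 99.99% of the values of each library were whole multiples of what 1 read is worth, within 0.1 read. Of 14042 rows, 13 for Y copies of pseudoautosomal genes were left out, and all 14029 others matched GENCODE release 29.

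limma 3.58.1 with a mean-variance trend was run in R 4.3.3 on log2(value + 0.5) over all 14029 genes, with Benjamini-Hochberg adjustment. The pseudocount makes fold changes of low genes too small. edgeR 4.0.16 (quasi-likelihood) and DESeq2 1.42.0 were run on the recovered reads as alternatives, and edgeR called 4165 genes lower and 3893 higher. The fitting scripts were tested on simulated data. These had no shift of replicate 1 and no length trend, so the test does not cover those features of the real libraries. The members and gene lists were chosen with earlier results of these data known. Named were all measured repair and histone members, the extremes of each other list, and up to 3 called genes of each further list with the largest absolute fold change. Both groups have replicates numbered 1 to 3 in the labels, and deviations from group means correlated across genes between same-numbered libraries (r of 0.309, 0.106 and 0.120), which was taken as pairing in fits with the replicate block, although different-numbered replicates 2 and 3 correlated alike (0.113 and 0.114). Replicates 2 and 3 of a group had a mean chi-square of 2.04 and 1.91 per gene, over genes with 200 reads or more. Between replicate 1 and either of them it was 9.90 to 15.0. Sampling noise alone gives about 1 if each recovered read is an independent fragment, and more if both mates of a pair were counted. Which of these applies was not tested, and all libraries were counted as separate.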

Additional observations from a re-analysis of the deposited data

How the results depend on the processing

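Of the 47 USP genes, 25 kept their direction and their call under all 18 alternatives run. The 34 lower genes were 31 to 34 with single libraries left out, 34 with edgeR and 33 with DESeq2, 28 with quantile scaling, and 35 with the replicate block, which changed no call but that of USP39 among the members. Asking for an absolute log2 fold change of 0.5 left 16 lower and 0 higher USP genes, 5 and 0 other deubiquitinases, 10 and 0 partner and substrate genes, and 1405 and 989 of all genes. Median scaling gave 8 higher USP genes, 18 higher and 9 lower other deubiquitinases, 11 higher partner and substrate genes, and 6254 higher and 2510 lower of all genes. With the replicate block and the length and GC trend removed, 8 USP genes, 14 other deubiquitinases and 8 partner and substrate genes were higher. The partner and substrate genes counted 5 higher, 8 with array weights and 8 with the replicate block. With single libraries left out they ranged from 3 to 7, with 3 without SRMS shRNA replicate 2 and 3 without SRMS shRNA replicate 3. The USP median of -0.33 was -0.17 with median scaling, -0.25 with quantile scaling, -0.19 with the replicate block and the length and GC trend removed, and -0.35 to -0.30 without single libraries.

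Signs changed for 9 members, of which USP4, USP14, USP15 and USP34 were called lower and 5 were not called, and the cause was not tested. With median scaling USP4 was 0.015, USP14 0.015, USP2 0.042, USP50 0.053, USP39 0.090, USP20 0.10 and USP32 0.10. With quantile scaling USP20 was 0.10 and USP32 0.066. With the replicate block and the length and GC trend removed USP15 was 0.026, USP34 0.023, USP14 0.065 and USP32 0.12. With replicate 1 of both groups left out USP2 was 0.037 and USP50 0.16. Without single libraries USP2 ranged from -0.29 to 0.017 and USP50 from -0.22 to 0.077, both highest without SRMS shRNA replicate 1. USP50 was 0.064 with array weights. Depth limits USP2, USP6, USP41 and USP50, which had under 100 reads in every library.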
